A study of Mus musculus with 6 samples.

Results

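The STAT transcription factors and the SOCS proteins that restrain them are described here in peritoneal macrophages of old and young mice. The 9 genes were taken by name from the deposited table, which lists 19973 genes. They are 5 STAT genes (Stat2, Stat3, Stat5a, Stat5b and Stat6) and 4 SOCS genes (Socs1, Socs2, Socs3 and Cish), each matched to its Ensembl identifier through the mouse symbol. The rule itself uses names and no measured value, but the names were chosen with earlier results of these data known.

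Both groups were male C57BL/6 mice, a common inbred laboratory strain, with 3 libraries at 18 months of age (old) and 3 at 2 months (young). Every mouse had received 200 µg of zymosan A, a yeast cell wall preparation that causes a self-limiting inflammation, into the peritoneal cavity. Cells were washed out after 72 hours and cultured overnight in medium with L-cell supernatant, unattached cells were removed, and vehicle (PBS) was given for 6 hours to those that had attached. The series is titled for resolvin D2, a lipid mediator of resolution, and its receptor GPR18 in ageing. The 6 libraries analysed here all received vehicle and not the lipid, so the comparison is of age alone in vehicle. The labels speak of 3 mice a group and of sequencing in triplicate, and do not say whether a library is a mouse or a repeat. P-values therefore reflect only how far these libraries scatter, and some of that scatter may be technical.

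STAT proteins wait in the cytoplasm until a cytokine receptor and its Janus kinase phosphorylate them, after which they pair, enter the nucleus and bind DNA. STAT2 serves type I interferon, STAT3 the interleukin-6 and interleukin-10 families, STAT5A and STAT5B factors such as GM-CSF, and STAT6 interleukin-4 and interleukin-13. SOCS genes are themselves targets of STAT proteins, and their products bind receptors or kinases and close the loop.

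RefSeq promoters (GRCm38.p6, from 250 bases before the start to 50 bases after it) were found for 8 of the 9 genes. A set of 3 letter patterns was searched on both strands. The STAT palindrome is TTCNNNGAA. The wider palindrome that STAT6 prefers has TTC and GAA with 4 bases between them, and the core of the interferon-stimulated response element has GAAA and GAAA with 2 bases between them. They occur in 8.298%, 6.953% and 3.443% of the 32851 promoters of this length. The stretches below are shown because they hold all the matches found among these genes. Capitals mark the matched letters, each line reads 5′ to 3′ on the gene's strand, and position 1 is the start that the RefSeq table gives. For Stat2, Socs3 and Cish that start differs from the outer gene start in GENCODE, and for Stat2 and Socs3 the last 30 bases of the window lie in no GENCODE transcript.

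Stat2, chr10:128270248-128270337, plus strand: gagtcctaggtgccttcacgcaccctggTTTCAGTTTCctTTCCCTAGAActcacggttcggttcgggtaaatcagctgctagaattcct
Socs1, chr16:10785564-10785659, minus strand: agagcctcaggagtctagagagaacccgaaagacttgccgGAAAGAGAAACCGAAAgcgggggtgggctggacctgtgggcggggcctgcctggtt
Socs3, chr11:117969472-117969560, minus strand: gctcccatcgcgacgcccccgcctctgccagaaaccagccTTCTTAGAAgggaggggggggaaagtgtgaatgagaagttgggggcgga
Cish, chr9:107296619-107296683, plus strand: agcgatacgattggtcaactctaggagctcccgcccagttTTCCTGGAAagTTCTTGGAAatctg

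The Stat2 stretch holds the interferon element on the reverse strand (TTTCAGTTTC, positions -222 to -213) and the wider palindrome 12 bases further on (TTCCCTAGAA, -210 to -201). In Socs1, 2 interferon elements overlap by 4 bases (GAAAGAGAAA at -83 to -74 and GAAACCGAAA at -77 to -68). At least 2 matches to that pattern occur in 0.2253% of all promoters. Socs3 holds 1 STAT palindrome (TTCTTAGAA, -154 to -146). Cish holds 2 of them at its start (TTCCTGGAA at 1 to 9 and TTCTTGGAA at 12 to 20), and 0.4566% of all promoters hold at least 2. None of the 3 patterns was found in the windows of Stat3, Stat5a, Stat5b or Stat6, which says only that these letters are not in these windows. A match is a description of letters and not a measured site of binding.

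The values are normalized counts, that is the reads of a gene scaled by each library's size factor. Library totals lay between 8163016 and 13007604 reads. Old library 3 and young library 3 stood apart from the other 2 libraries of their age. Gene by gene, the squared difference in counts between 2 libraries was divided by the variance expected from sampling. For old libraries 1 and 2 its median was 1.49 times that expected from sampling noise. For old library 3 against these it was 4.02 and 4.67 times. Among the young libraries the pair 1 and 2 gave 1.77 and the pairs with library 3 gave 4.20 and 2.93, while pairs of different age gave 8.57 to 18.9. No pair agreed within sampling noise. Results are given with all 6 libraries, and counts of calls that change also without the libraries numbered 3, a choice made after seeing the data.

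Per kilobase of exon, Stat6 was the most abundant of these genes by a wide margin. It had a mean level of 762 normalized counts per kb over the 6 libraries, 5.31 times the level of Stat3 (143). Stat3 stood 1.37 times above Stat5b (105), and Stat5b 1.51 times above Stat2 (69.3). Each of these steps held in 6 of 6 libraries, with no overlap of the ranges. Exon length was that of all annotated exons of a gene merged, 4402 bases for Stat6 and 9527 for Stat3. The steps and the shares below depend on that choice. Before division by length, Stat6 had a mean of 3352 normalized counts and Stat3 of 1366. Socs3, at 66.0, was the only one of the 4 SOCS members at a comparable level, and its range overlapped that of Stat2. Stat5a followed at 39.9 per kb. Socs1 (2.04), Cish (0.370) and Socs2 (0.345) lay far lower, and Cish and Socs2 were not separated from each other.

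**Figure D1:**
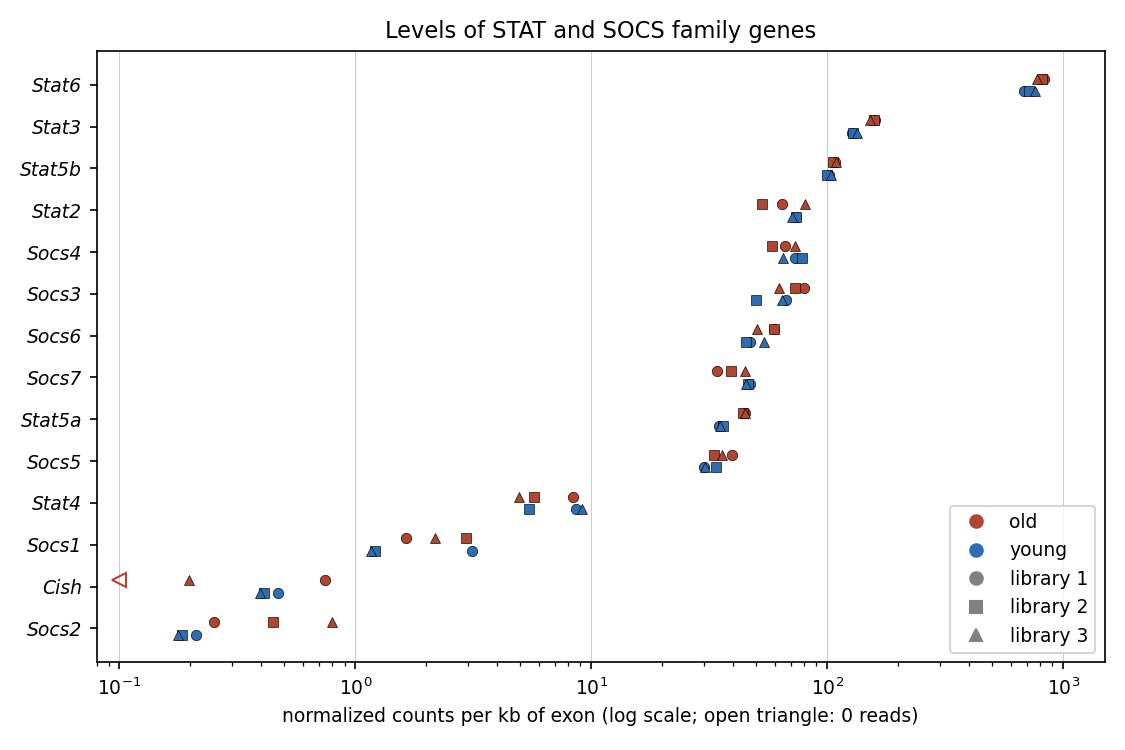
Normalized counts per kilobase of exon (log axis) for the 9 genes and 5 relatives, with red for old and blue for young, and circles, squares and triangles for libraries 1, 2 and 3; the open triangle at the left edge stands for the old library in which Cish had 0 reads. Stat6 lies above all others near 762, most genes lie between about 30 and 160, and Socs1, Cish and Socs2 lie below 4.

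Stat6 made up 68.3 ± 1.302% of the summed per-kilobase level of the 5 STAT genes in old libraries and 67.8 ± 0.998% in young ones (SD, n = 3 each). Stat3 contributed 13.3 ± 0.251% in old and 12.3 ± 0.197% in young, and Stat5b 9.11 ± 0.215% and 9.64 ± 0.337%. Stat2 contributed 5.59 ± 1.23% and 6.88 ± 0.396%, and Stat5a, the smallest part, 3.78 ± 0.0821% and 3.34 ± 0.144%. The order of the 5 was the same at both ages.

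Of the 9 genes, 6 passed the filter of a mean of at least 10 normalized counts and were tested. Stat3 and Stat5a were higher in old macrophages, by 1.20-fold and 1.26-fold. Stat2, Stat5b, Stat6 and Socs3 did not pass (limma over all genes, Benjamini-Hochberg adjusted p under 0.05). Socs1, Socs2 and Cish were too low to be tested at this filter. The count of 2 of 6 stands beside a background of 35.5% of the 11795 genes tested, so these genes passed about as often as genes in general. The libraries of the 2 ages did not overlap for 4 of the 6 tested genes (Stat3, Stat5a, Stat5b and Stat6), against 47.5% of all genes tested. All 4 were higher in old, beside 24.0% of all genes tested that separated in this direction and 23.6% in the other. The median log2 fold change (old minus young) was 0.21 for the 6 genes and 0.00 for all genes tested. The median size of change, without sign, was 0.27 over all genes tested.

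Stat3 (ENSMUSG00000004040, chromosome 11, 100885098 to 100939540, minus strand, GRCm38) encodes the factor through which interleukin-10 and interleukin-6 act on macrophages. It had 1515, 1510.4 and 1443 normalized counts in its old libraries against 1217, 1229 and 1279 in its young ones. All old values lay above all young values. The means were 1489 ± 40.5 and 1242 ± 32.5 (SD, n = 3 each), and limma put the log2 fold change at 0.26 with a standard error of 0.06 (adjusted p = 0.00900). The call was lost without young library 2 (log2 fold change 0.26, adjusted p = 0.0523). Of the genes tested, 50.3% changed by more in size.

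Stat5a (ENSMUSG00000004043, chromosome 11, 100859351 to 100885169, plus strand) and its neighbour Stat5b are close paralogs that answer GM-CSF and other growth factors. For Stat5a the old libraries held 320.3, 314 and 320.1 normalized counts and the young ones 247, 258 and 249. The ages were separated, and the libraries within each age lay close together, library 3 included. Means were 318 ± 3.73 and 252 ± 5.62 (SD, n = 3 each), and the log2 fold change was 0.34 with a standard error of 0.08 (limma, adjusted p = 0.00775). It passed with any 1 library left out, with adjusted p from 0.00893 to 0.0340. Of the genes tested, 41.0% changed by more in size.

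Stat5b (ENSMUSG00000020919, chromosome 11, 100780731 to 100850724, minus strand) had 599.9, 586 and 601 normalized counts in its old libraries against 565, 553 and 575 in its young ones. The 2 ages did not overlap, but the step between them was small. Means were 595 ± 8.55 and 564 ± 10.95 (SD, n = 3 each), the log2 fold change was 0.08 with a standard error of 0.07, and the test was not passed (limma, adjusted p = 0.384). The 95% interval of the fold, from 0.953 to 1.17, includes no change and a modest rise.

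The difference between the paralogs was examined through their ratio in each library. Stat5b exceeded Stat5a 1.873, 1.866 and 1.877 times in old libraries and 2.285, 2.143 and 2.305 times in young ones. Old ratios were all below young ones and varied little. The means were 1.87 ± 0.00531 and 2.24 ± 0.0883 (SD, n = 3 each), and log2 of the ratio was lower by 0.26 in old (value -0.26). An exact permutation test, two-sided, gave p = 0.1, the smallest value that the 20 arrangements of 3 against 3 libraries allow, so this design cannot pass the threshold. The transcripts share 608 stretches of 50 bases, which is 8.21% of those in Stat5a and 10.98% of those in Stat5b. Reads from these stretches could have been counted for either gene or left out.

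Stat5b, Stat5a and Stat3 lie side by side. Stat5b and Stat5a run away from each other with 8626 bases between them. Stat5a and Stat3 run toward each other and their last exons share 72 bases, 1.009% of the Stat5a exon length and 0.756% of that of Stat3. Whether reads were counted by strand is not given in the sources used here, so reads from those 72 bases cannot be assigned.

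**Figure D2:**
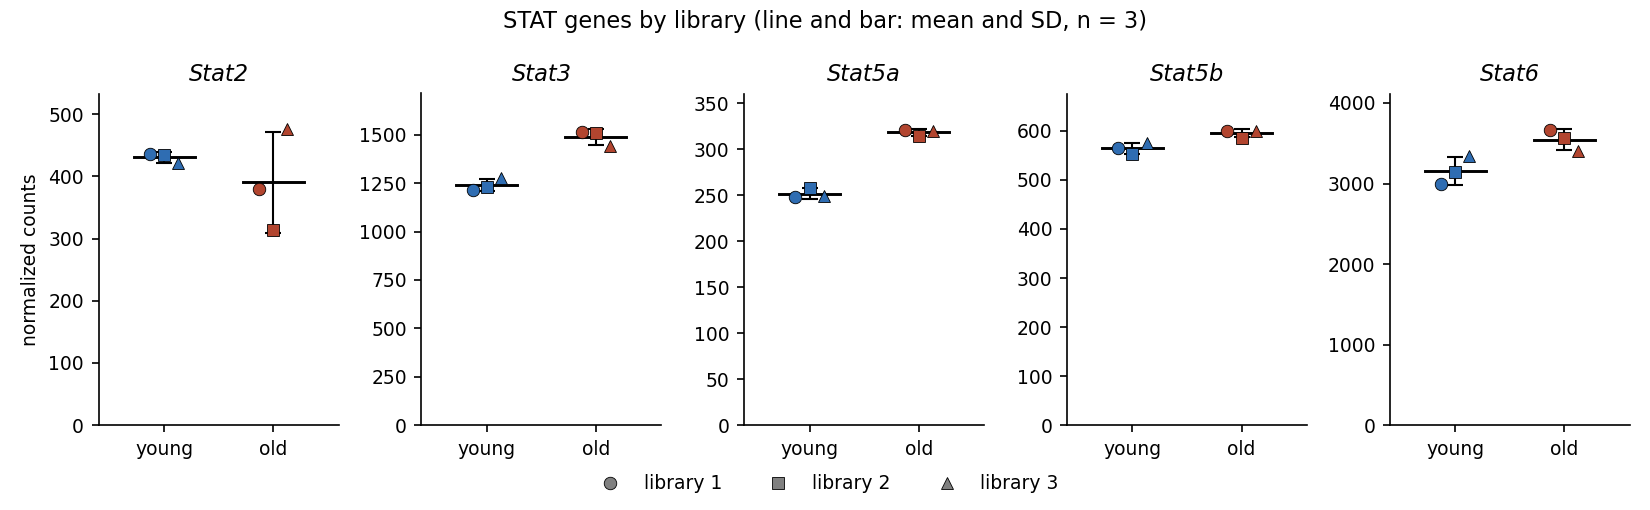
Normalized counts of the 5 STAT genes in each of the 3 old (red) and 3 young (blue) libraries, with the mean and SD of each age. Old points lie above young points for Stat3, Stat5a, Stat5b and Stat6. For Stat2 the old points spread from 315 to 476 around the narrow young range.

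Stat6 (ENSMUSG00000002147, chromosome 10, 127642986 to 127660957, plus strand), which carries the interleukin-4 signal, had 3666, 3564 and 3406 normalized counts in its old libraries against 2994, 3147 and 3337 in its young ones. The ages did not overlap, and old library 3 and young library 3 were the nearest pair. Means were 3546 ± 131 and 3159 ± 172 (SD, n = 3 each). The log2 fold change of 0.17 with a standard error of 0.07 did not pass (limma, adjusted p = 0.0888).

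Stat2 (ENSMUSG00000040033, chromosome 10, 128270559 to 128292849, plus strand), the interferon factor, was the only STAT gene of the 5 with a lower mean in old. Its old libraries held 380.0, 315 and 476 normalized counts and its young ones 436, 435 and 421. Old libraries 1 and 2 lay below every young library and old library 3 above every one. Means were 390.3 ± 81.3 and 431 ± 8.41 (SD, n = 3 each), with a log2 fold change of -0.16, a standard error of 0.13 and adjusted p = 0.375 (limma). The 95% interval of the fold ran from 0.726 to 1.10.

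Socs3 (ENSMUSG00000053113, chromosome 11, 117966079 to 117970047, minus strand) encodes the inhibitor that binds the interleukin-6 receptor chain gp130 and is induced through STAT3. It had 229, 210.3 and 180.4 normalized counts in its old libraries against 194, 144 and 186 in its young ones. The ages overlapped, since old library 3 lay below young libraries 1 and 3. Means were 207 ± 24.7 and 175 ± 26.9 (SD, n = 3 each), the log2 fold change was 0.25 with a standard error of 0.14, and the test was not passed (limma, adjusted p = 0.202). The interval of the fold, 0.953 to 1.48, leaves room for no change.

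Socs1 (ENSMUSG00000038037, chromosome 16, 10782240 to 10785536, minus strand) encodes an inhibitor of Janus kinases downstream of interferons. Its 6 libraries together held 36 reads, 19 in old and 17 in young. The old libraries had 4, 10 and 5 reads, which are 4.78, 8.55 and 6.35 normalized counts. The young ones had 9, 4 and 4 reads, which are 9.05, 3.51 and 3.38. The ages overlapped, and the fit without the filter gave a fold interval from 0.588 to 2.74 (limma, adjusted p = 0.697).

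Socs2 (ENSMUSG00000020027, chromosome 10, 95385362 to 95417180, minus strand), known as a brake on growth hormone signalling, had 2, 5 and 6 reads in old libraries and 2, 2 and 2 in young ones. In normalized counts these were 2.39, 4.27 and 7.62 against 2.01, 1.75 and 1.69. The normalized values did not overlap, but old library 1 and the young libraries had equal reads. The fold interval without the filter was 0.864 to 4.20 (limma, adjusted p = 0.258).

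Cish (ENSMUSG00000032578, chromosome 9, 107296026 to 107302784, plus strand), a STAT5-induced member of the family, had 4, 0 and 1 reads in old libraries and 3 in each young one. These are 4.78, 0 and 1.27 normalized counts against 3.02, 2.63 and 2.54. In the old library without a read, a count of 0 allows up to 3 reads, or 2.56 normalized counts, for counting error only. The fold interval without the filter ran from 0.242 to 1.66 (limma, adjusted p = 0.526). At this depth an age difference in Socs1, Socs2 or Cish was not detectable unless large. Exons of Cish also overlap 2 noncoding or pseudogene models on the opposite strand, by 4.07% and 7.46% of their length.

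**Figure D3:**
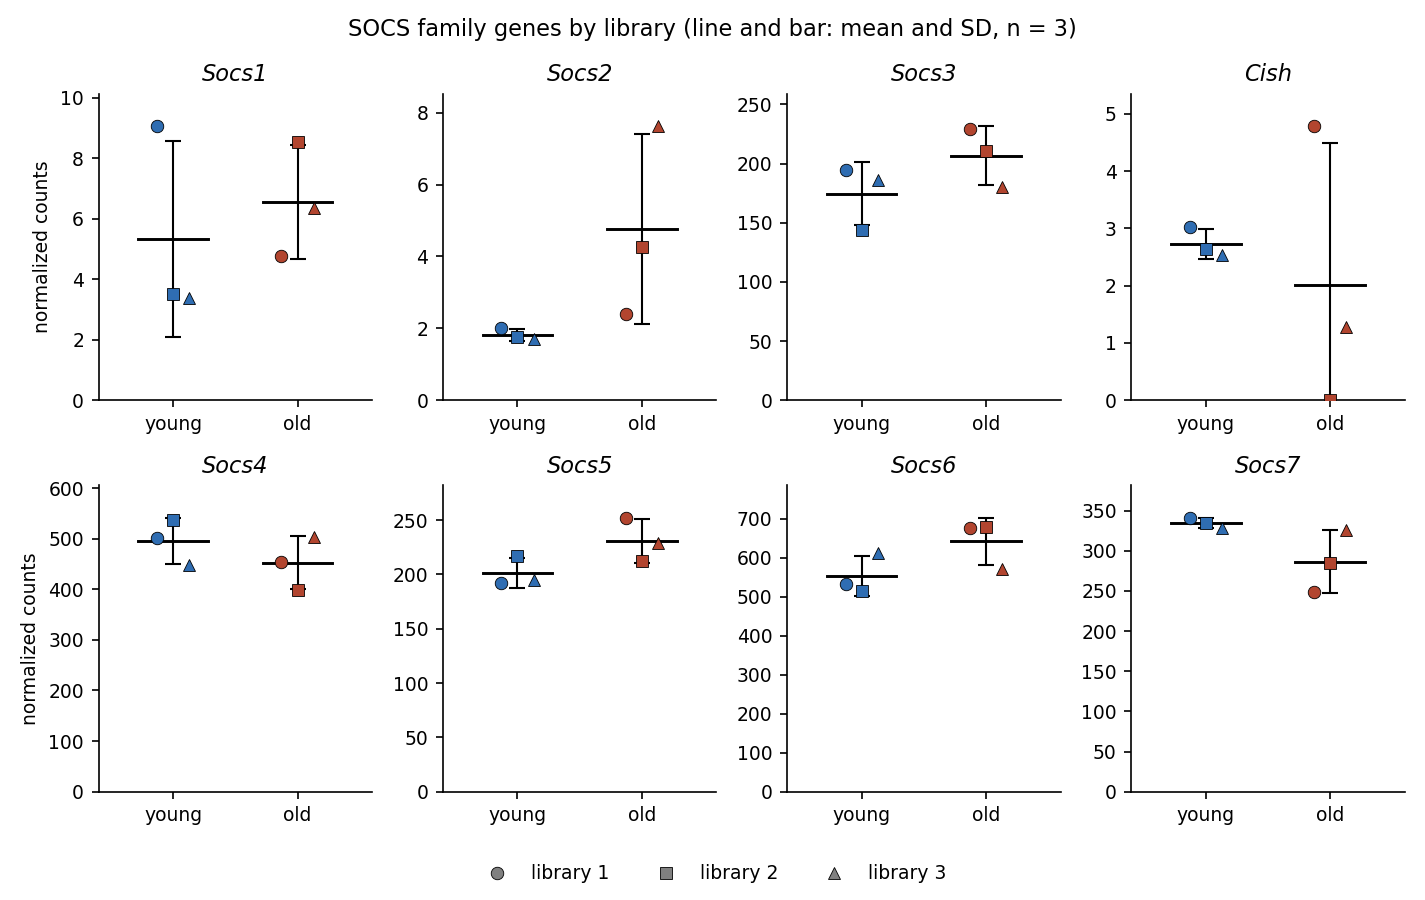
Normalized counts of the 4 SOCS genes, and of Socs4, Socs5, Socs6 and Socs7, in each library. The 3 old libraries are red and the 3 young ones blue, with the mean and SD of each age. Socs3 lies between 144 and 229 with the ages overlapping, and Socs1, Socs2 and Cish stay below 10 in every library.

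Relatives of these genes gave no call in the test as run on the members. Stat4, which serves interleukin-12, had 24.5 ± 6.90 normalized counts at the old age against 29.9 ± 7.76 at the young one (SD, n = 3 each; limma, adjusted p = 0.5004). Socs4 had 453 ± 52.5 against 496 ± 45.3 and Socs5 had 231 ± 20.2 against 201 ± 13.4. Socs6 had 642 ± 60.6 against 553 ± 52.1, with limma adjusted p = 0.120. Socs7 had 287 ± 39.0 against 334 ± 6.57, also with limma adjusted p = 0.120, and its old libraries all lay below the young ones. Thus 0 of these 5 genes passed in that limma fit, in edgeR or in DESeq2, and 0 had an unadjusted limma p under 0.05. Of all genes tested, 35.5% passed in that limma fit. Other limma settings on all 6 libraries did call some. Socs6 passed with median centring (adjusted p = 0.0381). With array quality weights Socs4, Socs6 and Socs7 passed (limma, adjusted p = 0.00720, 0.000330 and 0.00139). Over all genes, median centring called 4514 of 11795 and array quality weights 7634 of 11795.

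Without the libraries numbered 3, with 2 libraries left at each age, 5 of the 6 tested genes passed beside a background of 59.0% of all genes tested. Stat2 was then lower in old, at -0.33 on the log2 scale (limma, adjusted p = 0.00355). Stat6 was higher by 0.24 (adjusted p = 0.000535) and Socs3 by 0.39 (adjusted p = 0.0134). Stat3 at 0.31 and Stat5a at 0.33 passed as before, with adjusted p-values of 7.39e-05 and 0.00480. Stat5b stayed at 0.08 and did not pass (adjusted p = 0.315). Leaving out old library 3 alone was enough for Stat2 (-0.32, adjusted p = 0.0152) and Stat6 (0.20, adjusted p = 0.0359). Without the libraries numbered 3, Socs6 at 0.37 also passed as higher, and Socs4 at -0.29 and Socs7 at -0.34 as lower. Socs6 and Socs7 passed without old library 3 alone as well.

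**Figure D4:**
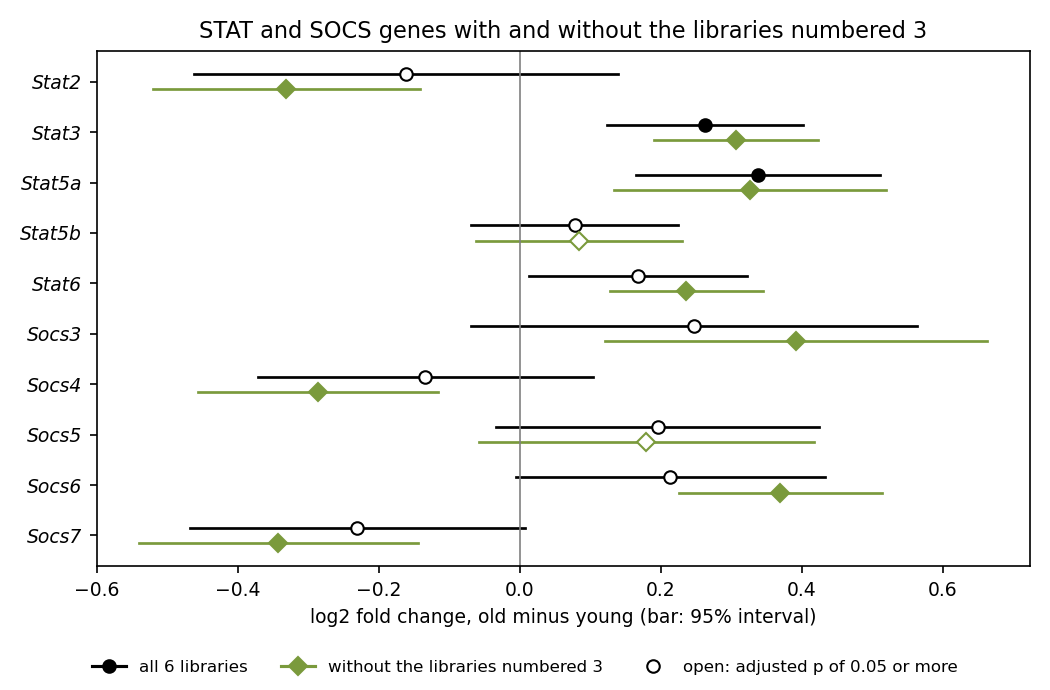
Log2 fold change (old minus young) with its 95% interval for the tested STAT and SOCS genes, fitted with all 6 libraries and without the libraries numbered 3. Stat5a and Stat5b hardly move, and Stat2, Stat6 and Socs3 move away from 0 without the libraries numbered 3.

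The genes whose mean-centred log2 values over the 6 libraries came nearest to those of Stat5a were Arih1, Tgif1 and Usp4. Their root mean square differences from it were 0.0237, 0.0298 and 0.0303 log2 units among 9559 genes compared. For Socs3 the nearest were Mlycd (0.0533), Gon7 (0.0610) and Dolk (0.0683).

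Around these factors, the receptor chains showed the most calls of the lists examined. Of 17 tested cytokine receptor chains that signal through Janus kinases, 10 were higher and 2 lower in old, with a median log2 fold change of 0.43. That is 70.6% called, beside 35.5% of all genes tested. Without the libraries numbered 3 it was 15 (12 higher, 3 lower), beside 59.0%. Csf2rb, the shared beta chain for GM-CSF and a source of STAT5 signals, had 3531, 3602 and 3856 normalized counts in its old libraries against 1474, 1491 and 1599 in its young ones. That is 2.41-fold higher in old (limma, adjusted p = 1.02e-06), with the caution that its near-identical copy Csf2rb2 could share reads. Il6st, which encodes gp130, the receptor chain that leads to STAT3 and is bound by SOCS3, had 1587, 1588 and 1561 against 893, 875 and 910.1. It was 1.77-fold higher in old (limma, adjusted p = 7.25e-06). Il2rg, the common gamma chain, was 1.97-fold higher (1045 ± 94.1 against 531 ± 66.9), and 30.5% of its exon length is shared with an overlapping gene model. Il21r, the interleukin-21 receptor, was 2.03-fold higher in young (115 ± 10.6 against 234 ± 13.3; limma, adjusted p = 8.38e-05).

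Among the 4 Janus kinases, which phosphorylate STAT proteins, 1 was higher and 1 lower in old, beside 35.5% of all genes called. Jak1, used by interferon and gp130 receptors, had 3298 ± 58.5 against 2658 ± 123 normalized counts (SD, n = 3 each; limma, adjusted p = 0.00461). Jak3, the partner of the common gamma chain, had 82.9 ± 8.64 against 134 ± 23.8 (limma, adjusted p = 0.00750). Both counts were the same without the libraries numbered 3. Only 3 of the 17 listed cytokines could be tested, and 7 were not analysed here. Osm, the gp130 ligand oncostatin M and itself a STAT5 target, had 99.6 ± 8.20 against 185 ± 12.2 and was lower in old (limma, adjusted p = 0.000286). Il15 was 1.395-fold higher in old with limma adjusted p = 0.0389, a call that did not pass in edgeR or DESeq2 (adjusted p = 0.0504 and 0.108). It was also lost without old library 1 or 2 or young library 2 or 3 (limma, adjusted p 0.0553 to 0.127). Without the libraries numbered 3 its adjusted p was 0.0877, which left Osm as the 1 call among the cytokines.

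Of the 12 other negative regulators, 2 were higher and 2 lower in old, with a median of -0.09. The share called, 33.3%, is near the 35.5% of all genes tested. The phosphatase genes Ptprc (CD45) and Ptpn6 (SHP-1) were higher by 0.59 and 0.52 on the log2 scale. Cbl, a ubiquitin ligase gene, and Pias4 were lower (-0.48 and -0.33). The Cbl call was lost when old library 1 or 2 or young library 1 or 2 was left out (limma, adjusted p 0.0669 to 0.0841), and the Pias4 call without old library 1 or any 1 young library (0.0584 to 0.101). Pias4 also did not pass in DESeq2 (adjusted p = 0.0591) or, in limma, with quantile normalization (0.0527) or median centring (0.0533). The number of calls in this list was 2 without old library 1 or young library 2, 7 without old library 3 and 9 without the libraries numbered 3. Over all genes the calls also rose, to 5660 of 11741 without old library 3 and to 59.0% without the libraries numbered 3.

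The STAT2 list, its partner Irf9 and interferon-stimulated genes, had 4 of 11 members higher and 0 lower in old, with a median of 0.44. The share called, 36.4%, is near the 35.5% of all genes tested. Without the libraries numbered 3 it was 6 of 11, beside 59.0%. Irf7, a regulator that amplifies interferon responses, stood at 799.5, 883 and 853 normalized counts in old libraries and 154, 161 and 176 in young ones. Its log2 fold change was 2.36 (limma, adjusted p = 1.06e-07). Oasl1 (1.24), Oas1a (0.60) and Rsad2 (0.48) were the other 3, and Rsad2 did not pass without old library 1 or young library 1 (limma, adjusted p = 0.0501 and 0.0586) or in DESeq2 (adjusted p = 0.0513). Irf9 did not pass (0.17, adjusted p = 0.221).

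The STAT3 targets went both ways, with 1 of 10 higher and 3 lower in old and a median of -0.02. The share called, 40%, is near the 35.5% of all genes tested. Etv3, a repressor induced by interleukin-10, was higher (0.39). Cebpb (-0.62), Sbno2 (-0.31) and Il4ra (-0.23) were lower. The Sbno2 call was lost without old library 1 or 2 or young library 1 or 2 (limma, adjusted p 0.101 to 0.131), and that of Il4ra without old library 1 or 2 or young library 2 or 3 (0.0503 to 0.0826). The list had 2 calls without any 1 of old libraries 1 and 2 and young library 2, and 7 without the libraries numbered 3, beside 59.0% of all genes. Socs3 belongs to this list. Of 6 tested STAT5 targets 2 were lower, Osm and the cyclin gene Ccnd1 (2011 ± 230 against 3369 ± 135), and 0 were higher. The share called, 33.3%, is near the 35.5% of all genes tested, and without the libraries numbered 3 the count was 3 (1 higher, 2 lower). Cish, Socs1 and Socs2 belong to this list and were below the filter. Of the genes called here, Ccnd1 shares 23.4% of its exon length and Cebpb 20.7% with a gene on the opposite strand. Reads from those bases cannot be assigned.

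STAT6 targets moved in opposite directions by the largest amounts of any list examined. Of 8 tested, 2 were higher and 3 lower in old, 62.5% beside 35.5% of all genes tested. Without the libraries numbered 3 it was 7 (4 higher, 3 lower), beside 59.0%. Egr2, a transcription factor gene of alternative activation, had a log2 fold change of 2.84, and Pparg, a lipid-sensing nuclear receptor gene, 1.51. Arg1, the arginase gene often used as a mark of interleukin-4 activation, stood at -2.75 and Klf4 at -0.64. Mrc1, the mannose receptor gene, was also lower (-0.38). These changes stood beside a Stat6 difference of 0.17 that did not pass.

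**Figure D5:**
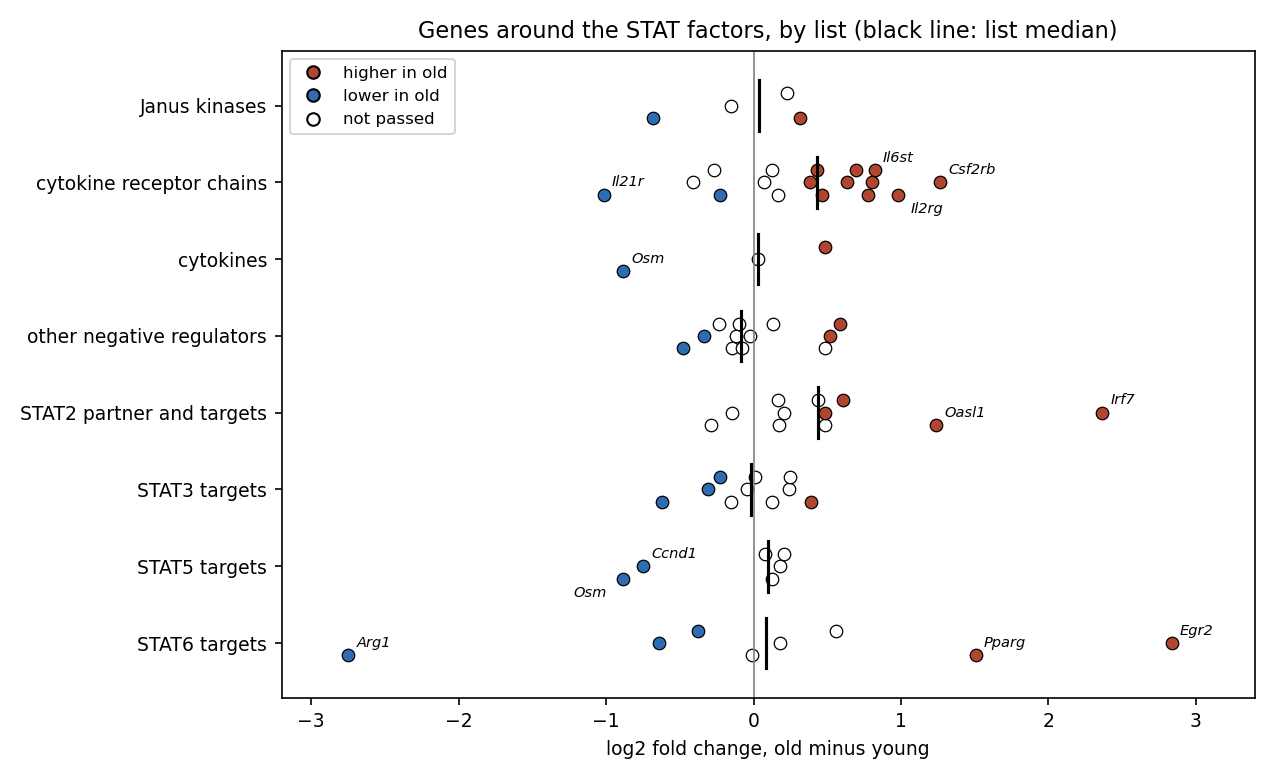
Log2 fold change (old minus young) of each tested gene in 8 lists around the STAT factors, with red for genes that passed as higher in old, blue for lower, open circles for genes that did not pass and a black line for each list's median. Receptor chains lie mostly to the right with a median of 0.43, and STAT6 targets spread from -2.75 (Arg1) to 2.84 (Egr2).

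These are bulk libraries, so fewer cells of a type and less RNA per cell cannot be told apart. All 7 macrophage markers were abundant at both ages, with summed levels of 344680 to 429761 normalized counts in old and 274411 to 349225 in young libraries. Of the 7, 5 were higher in old and 0 lower. For this and the marker counts below, 17.9% of all genes tested passed as higher in old and 17.6% as lower. The macrophage sum is mostly Lyz2, which did not pass. Those that passed were higher in old by 1.19-fold (Csf1r), 1.25-fold (Mertk), 1.29-fold (Itgam), 1.69-fold (Cd68) and 1.86-fold (Cd14). Stat3 stood at 1.20-fold and Stat5a at 1.26-fold. B cell markers summed to 1369 to 2944 in old and 51.8 to 59.3 in young libraries, with 7 of 7 higher in old. Mast cell markers summed to 535 to 607 against 38.2 to 63.4 (5 of 5 tested higher). The 2 of 8 neutrophil markers used, Camp and S100a8, summed to 509 to 653 against 186 to 238. Camp had 2 reads in young library 1 and 0 in all others, so this sum is almost wholly S100a8. T and NK cell markers summed to 48.3 to 83.8 against 6.76 to 12.1, and dendritic cell markers to 47.0 to 69.2 against 17.1 to 24.6. Eosinophil markers (2 of 5 used) summed to 8.89 to 16.2 against 6.04 to 14.9 and mesothelial markers to 3.81 to 12.0 against 6.04 to 9.30. No marker used was at 0 in all libraries. That was fixed beforehand, since every gene listed had 2 or more reads over the libraries together. The B cell sum was lowest in old library 3, at 1369, against 2609.9 and 2944 in old libraries 1 and 2. The part of cell makeup in the differences above was not tested.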

How the data were processed

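Messenger RNA of 6 libraries (3 old, 3 young) had been prepared with the TruSeq protocol, per the labels. The deposited values are a signal, counts per Ensembl gene that the authors normalized by library size factors. DESeq2 and mm10 are named in the submitters' processing notes. For aligner, counter, annotation and strand, nothing is given in the sources used here. Of 19973 identifiers, 19917 matched a symbol. Positions and exon lengths come from GENCODE on GRCm38, the assembly that mm10 names.

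All values of a library are multiples of 1 step, and dividing by it gave back the reads. Within 0.01 reads, 100% of values came out whole in every library. The deposited table was fitted with limma 3.58.1 (R 4.3.3) with a trend on log2(value + 1), over 11795 genes with a mean of at least 10, with Benjamini-Hochberg adjustment over all of these at 0.05. It called 4183 genes, against 4324 with edgeR 4.0.16 (quasi-likelihood) and 3743 with DESeq2 1.42.0 on the recovered reads. The script was tested on simulated data. Fold changes on this scale understate the change of low genes, and fold values are ratios of means. Intervals are 95% intervals. Genes under the filter were fitted in a run without it.

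The members, gene lists and alternatives were chosen with earlier results of these data known. Named genes are all members and 5 relatives, up to 4 genes per list that passed with the lowest adjusted p, and for likeness the 3 nearest genes with a mean of at least 50. Irf9, the STAT2 partner, and Mrc1 fall outside this rule and were named after their values were seen. Some results are not reported here.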

Additional observations from a re-analysis of the deposited data

How the results depend on the processing

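Over the 19 alternatives, the log2 fold change of Stat3 lay between 0.24 and 0.32 and passed in 17, and that of Stat5a lay between 0.31 and 0.39 and passed in 18. Stat5b passed in 0 of 19, Stat6 in 4, Stat2 in 3 and Socs3 in 2, and no STAT or SOCS member turned direction. Over all genes, 4183 calls became 7634 with array quality weights, 2643 with the replicate number as a block and 6960 without the libraries numbered 3, and 2940 to 5660 with 1 library left out (lowest without young library 2, highest without old library 3). The members called went from 2 to 5 with array quality weights, 0 with the replicate block and 5 without the libraries numbered 3, and 1 (without young library 2) to 4 (without old library 3) with 1 left out. Under the block the adjusted p (limma) was 0.0826 for Stat3, 0.0595 for Stat5a and 0.0584 for Jak1. The ratio of Stat5b to Stat5a gave p = 0.25 in an exact permutation test in pairs. That is the smallest value that 3 pairs allow, so this test could not pass the threshold. Same-numbered libraries deviated from the means of their ages in opposite directions (correlations of -0.38, -0.36 and -0.68). Pairs with different numbers gave -0.38 to 0.54. Such deviations sum to 0 within each age, so these correlations cannot tell whether same-numbered libraries share more than a number. Median centring put 60.3% of calls as higher in old, against 50.4%, and added Stat6 (adjusted p = 0.0152, limma). Stat4 reversed from -0.28 to 0.24 with array quality weights and to 0.0173 without the libraries numbered 3, passing in none. The cause of these shifts was not tested. With 36, 19 and 14 reads in all, Socs1, Socs2 and Cish passed in no alternative, and DESeq2 gave no adjusted p for Cish.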

Other observations

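Several genes of the target lists fell under the filter, and Il10, Il2ra and Ccl24 are named here after their values were seen. Il10, the gene of an anti-inflammatory cytokine that acts through STAT3, had 14, 15 and 8 reads in old libraries and 0, 0 and 4 in young ones. In the fit without the filter its log2 fold change was 3.10 (limma, adjusted p = 0.00372), a value that depends on the added count. Il2ra, a STAT5 target and the interleukin-2 receptor alpha chain, had 6, 16 and 6 reads in old libraries and 1, 2 and 1 in young ones (2.22, limma adjusted p = 0.00681). Ccl24, from the list of STAT6 targets, was lower in old. It had 2, 1 and 0 reads in old libraries and 10, 17 and 15 in young ones (-2.86, limma adjusted p = 0.00265). B cell marker sums moved the same way as Il10 and Il2ra (1369 to 2944 in old against 51.8 to 59.3 in young). So did those of mast cells (535 to 607 against 38.2 to 63.4) and of T and NK cells (48.3 to 83.8 against 6.76 to 12.1). Dendritic cell sums (47.0 to 69.2 against 17.1 to 24.6) and S100a8 were also higher in old. Macrophage, eosinophil and mesothelial sums overlapped between the ages. The part of any of these cell types in the values of Il10, Il2ra and Ccl24 was not tested.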
